A study of Mus musculus with 6 samples.

Results

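The report covers 10 marker genes of mouse embryonic stem cells, the pluripotent cells grown from the early embryo: Dppa2, Dppa3, Dppa4, Dppa5a, Utf1, L1td1, Fbxo15, Tcl1, Tdh and Zfp42. They were taken by symbol from a list of named genes, with no threshold on their values, and all 10 were found among the 51912 Ensembl genes of the files. RNA was sequenced from 3 libraries of Rbbp4-/- cells, titled Rbbp4KO, and 3 libraries of Rbbp4F/F cells, which the series title names as the control. Both groups are C57BL/6 embryonic stem cells. Which exons the knockout lacks, how and when they were removed, and whether the libraries of a group are separate cultures or clones is not given in the sources used here. The product of Rbbp4 binds histones and is a subunit of Polycomb repressive complex 2, NuRD, Sin3 and CAF-1. The comparison asks which of these markers are kept and which are lost without it.

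These genes are used as markers because they are active in the inner cell mass, in stem cells and often in germ cells, and are silent in most other cells. Their products do unlike things. Dppa2 and Dppa4 are SAP domain proteins that bind each other and act at CpG-rich promoters, Dppa3 (Stella) guards DNA methylation patterns in the oocyte and early embryo, and Dppa5a (Esg1) is an RNA-binding protein of the KH family. Utf1 is a chromatin-associated factor, L1td1 an RNA-binding protein descended from a LINE-1 transposon, Fbxo15 an F-box protein, Tcl1 a coactivator of the kinase Akt, and Tdh the mitochondrial threonine dehydrogenase on which mouse stem cells rely. Zfp42 (Rex1), a zinc finger protein, arose as a retrotransposed copy of Yy1.

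Levels are given as FPKM, in which the fragments of a gene are divided by its length and by the library total, so levels can be compared between genes, and between libraries only relative to each library's total. A log2 fold change is Rbbp4KO over Rbbp4F/F on the scale log2(FPKM + 1), tested with limma across all genes that reached 1 FPKM in at least 3 libraries, and a gene is called when its Benjamini-Hochberg adjusted p is under 0.05. Depth, estimated from the steps between low values, was 26800000 to 27400000 fragments per Rbbp4KO library and 25400000 to 29000000 per Rbbp4F/F library. A single fragment of a 2 kb transcript then adds 0.0199 to 0.0228 FPKM. Rbbp4 itself had 21.3, 12.7 and 11.1 FPKM in Rbbp4KO replicates 1 to 3, against 58.5, 57.0 and 61.8 FPKM in Rbbp4F/F replicates 1 to 3. Rbbp4KO replicate 1 thus kept the most of the targeted transcript. Of 13579 genes tested, 4978 (36.7%) were higher and 3051 (22.5%) lower in Rbbp4KO, and the split depended on the scaling between libraries: 3843 higher and 3992 lower under median-ratio scaling, 3453 higher and 4402 lower under upper-quartile scaling, and 6080 higher and 2380 lower when libraries had equal sums. Tested genes had a median log2 fold change of 0.17, and of −0.01, −0.07 and 0.31 under these 3 scalings.

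Promoter sequences from RefSeq (GRCm38.p6, 250 bases before to 50 bases after the annotated start) were at hand for 4 of the 10 genes: Utf1, L1td1, Tcl1 and Zfp42. The pair shown is the one whose transcripts moved least and most among these 4, the Zfp42 promoter at chr8:43306960-43307259 and the Tcl1 promoter at chr12:105222688-105222987, both on the minus strand. Each is written 5′ to 3′ in the direction of transcription, and capitals mark a match to the octamer of POU factors such as Oct4.
Zfp42: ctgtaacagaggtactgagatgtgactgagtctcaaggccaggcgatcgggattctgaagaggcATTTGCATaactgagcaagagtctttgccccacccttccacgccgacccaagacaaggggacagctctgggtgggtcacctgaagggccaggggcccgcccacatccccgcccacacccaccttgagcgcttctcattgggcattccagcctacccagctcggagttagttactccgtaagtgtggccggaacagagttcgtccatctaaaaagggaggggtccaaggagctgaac
Tcl1: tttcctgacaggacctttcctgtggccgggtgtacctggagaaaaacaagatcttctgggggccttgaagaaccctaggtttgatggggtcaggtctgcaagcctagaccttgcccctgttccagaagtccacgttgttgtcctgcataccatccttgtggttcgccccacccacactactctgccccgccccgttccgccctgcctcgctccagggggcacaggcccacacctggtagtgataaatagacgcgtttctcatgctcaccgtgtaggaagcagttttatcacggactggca

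The search covered, on both strands, the octamer ATGCAAAT, the SOX core ACAATG, the ESRRB element TCAAGGTCA, the E-box CACGTG, the E2F element GGCGGGAA and the STAT element TTCNNNGAA. The one match among the 4 promoters was the octamer of Zfp42, read on the opposite strand at bases 65 to 72 of the window, beginning at −186 from the start. Of 32851 promoters of the same length, 1.74% held an octamer, 12.6% a SOX core, 0.423% the ESRRB element, 7.15% an E-box, 2.19% the E2F element and 8.3% the STAT element. A missing match says only that these letters do not occur in the window. The 4 promoters held between 11 CpG (Zfp42 and Tcl1) and 17 CpG (Utf1), with 14 in L1td1, where the median over all promoters was 7 and the upper quartile 20.

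Most of the markers fell, but by very different amounts, and a few were nearly kept. In Rbbp4KO 8 of the 10 genes were lower, 1 was higher and 1 was not called, where 22.5% of all tested genes were lower and 36.7% higher. Every Rbbp4KO library lay below every Rbbp4F/F library for those 8 genes and above for Dppa2, as was so for 25.5% and 41.3% of tested genes. The median log2 fold change of the 10 genes was −0.94, against 0.17 over all tested genes. All 10 were well above the filter in every library of both groups, the lowest value being 4.56 FPKM for Tcl1. Tdh and Tcl1 kept under 25% of their Rbbp4F/F mean, Dppa3 and Dppa5a kept 34.2% and 35.9%, and Utf1 and L1td1 kept 49.6% and 55.6%. The mean in Rbbp4F/F was at least 2 times that in Rbbp4KO for 5 of the 10 (Tdh, Tcl1, Dppa3, Dppa5a and Utf1), and 9.31% of tested genes were called lower by that much. Dppa4, Fbxo15 and Zfp42 kept 77.9%, 83.7% and 91.0%, and Dppa2 stood at 138%. In these bulk libraries fewer marker-positive cells and less RNA per cell cannot be told apart.

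**Figure D1:**
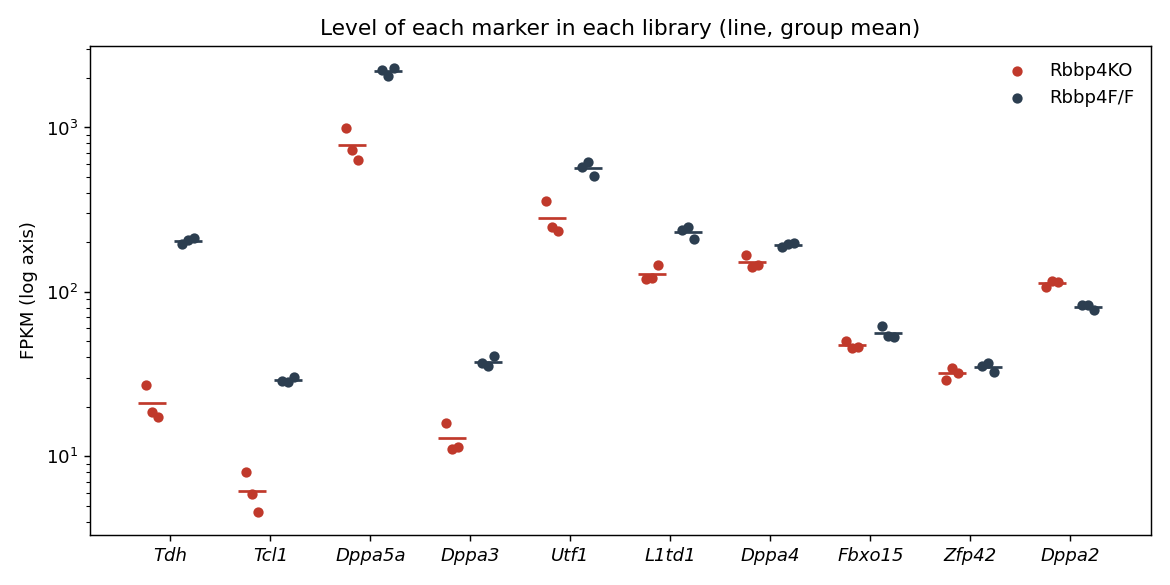
FPKM on a log axis for each of the 10 markers, ordered by log2 fold change, with 1 point per library (Rbbp4KO red, left; Rbbp4F/F dark, right; n = 3 each) and a line at the group mean. The groups are farthest apart for Tdh and Tcl1, overlap for Zfp42, and are turned round for Dppa2.

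The largest fall was in the metabolic marker. Tdh is annotated on the minus strand of GRCm38 at chr14:63492347-63509092. Tdh had 27.2, 18.6 and 17.4 FPKM in Rbbp4KO, against 196, 206 and 214 FPKM in Rbbp4F/F. Its mean was 21.05 ± 5.33 FPKM in Rbbp4KO and 205.3 ± 8.7 FPKM in Rbbp4F/F (SD, n = 3 each), a 9.75-fold difference (log2 fold change −3.25, 95% interval −3.63 to −2.87, limma adjusted p = 3.33e-05). No library of either group came near the other group. Among tested genes ordered by FPKM, Tdh stood between places 4182 and 5617 in the Rbbp4KO libraries and between places 496 and 562 in the Rbbp4F/F libraries, a measure that no scaling between libraries can move. Antisense exons of Gm17232 cover 2.5% of Tdh, and whether strand was used in counting is not stated.

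Enzymes that work beside Tdh moved the same way. Gcat, which splits the product of threonine dehydrogenase into glycine and acetyl-CoA, averaged 12.04 ± 5.67 FPKM in Rbbp4KO and 48.98 ± 1.6 FPKM in Rbbp4F/F (log2 fold change −2.02, limma adjusted p = 0.000798). It was higher in Rbbp4KO replicate 1 (18.6 FPKM) than in replicates 2 and 3 (9.42 and 8.16 FPKM). Gldc, the glycine cleavage enzyme, fell to 44.4% of its Rbbp4F/F mean, and Shmt2, which interconverts serine and glycine in mitochondria, fell to 38.8%. Their log2 fold changes, −1.17 for Gldc and −1.36 for Shmt2, were nearer 0 than that of Tdh.

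Tcl1, at chr12:105216750-105222793 on the minus strand, had the next largest change. It had 8.09, 5.88 and 4.56 FPKM in Rbbp4KO, against 28.6, 28.3 and 30.5 FPKM in Rbbp4F/F. The groups were apart, and the mean in Rbbp4KO was 21.2% of that in Rbbp4F/F (log2 fold change −2.10, 95% interval −2.52 to −1.68, limma adjusted p = 0.000144). The neighbouring paralogs Tcl1b1 to Tcl1b5 were listed at 0 in all 6 libraries. The more distant relative Mtcp1 averaged 0.98 ± 0.07 FPKM in Rbbp4KO and 1.66 ± 0.125 FPKM in Rbbp4F/F (−0.43, limma adjusted p = 0.0231), a call lost in 8 of 14 alternatives. Of the Akt kinases, to which Tcl1 binds, Akt1 rose to 70.2 ± 11.3 FPKM in Rbbp4KO, against 40.5 ± 1.74 FPKM in Rbbp4F/F (0.77, limma adjusted p = 0.00206). Akt2 (−0.12) was not called, but was called lower under median-ratio (−0.30, limma adjusted p = 0.0326) and upper-quartile scaling (−0.37, limma adjusted p = 0.0154).

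Dppa3 and Dppa5a fell by like amounts from very different levels. Dppa3 lies at chr6:122626410-122630272 on the plus strand and Dppa5a at chr9:78367052-78368177 on the minus strand. Dppa3 had 16, 11.1 and 11.4 FPKM in Rbbp4KO, against 36.7, 35.4 and 40.6 FPKM in Rbbp4F/F (log2 fold change −1.49, 95% interval −1.84 to −1.14, limma adjusted p = 0.000255). Dppa5a had 997, 729 and 631 FPKM in Rbbp4KO, against 2236, 2044 and 2294 FPKM in Rbbp4F/F (−1.50, interval −1.90 to −1.11, limma adjusted p = 0.000391). In both genes every Rbbp4KO library lay below every Rbbp4F/F library, and Rbbp4KO replicate 1 was the highest of its group. Dppa5a remained the most abundant marker in both groups, at places 116 to 161 of all tested genes in Rbbp4KO and 59 to 76 in Rbbp4F/F. It made up 49.4% of the summed FPKM of the 10 genes in Rbbp4KO and 60.4% in Rbbp4F/F. The pseudogenes Dppa5b and Dppa5c and the retrocopy Dppa3-ps were listed at 0 in every library, and how reads shared with such copies were divided is not stated.

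Genes linked with Dppa3 and Dppa5a were set beside them. Uhrf1, the DNA methylation cofactor that Dppa3 can restrain, fell to 46.0% of its Rbbp4F/F mean (−1.12, limma adjusted p = 0.000140), and the maintenance methyltransferase gene Dnmt1 to 70.1% (−0.51, limma adjusted p = 0.000671). Khdc3 and Ooep belong to the same KH family as Dppa5a and serve the oocyte. Khdc3 averaged 18.4 ± 4.29 FPKM in Rbbp4KO and 94.1 ± 4.11 FPKM in Rbbp4F/F (−2.31, limma adjusted p = 6.51e-05). Ooep averaged 3.29 ± 1.2 FPKM in Rbbp4KO and 10.44 ± 1.99 FPKM in Rbbp4F/F (−1.44, limma adjusted p = 0.00181).

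Utf1 (chr7:139943789-139945112, plus strand) and L1td1 (chr4:98726734-98738480, plus strand) lay between the markers most and least reduced. Utf1 had 359, 247 and 236 FPKM in Rbbp4KO, against 573, 620 and 505 FPKM in Rbbp4F/F (log2 fold change −1.03, 95% interval −1.43 to −0.63, limma adjusted p = 0.00205). L1td1 had 119, 122 and 146 FPKM in Rbbp4KO, against 238, 248 and 209 FPKM in Rbbp4F/F (−0.84, interval −1.10 to −0.59, limma adjusted p = 0.000667). The groups did not overlap in either gene, although for Utf1 the Rbbp4KO library with the most transcript was again replicate 1, while for L1td1 it was replicate 3. Lin28a, the RNA-binding protein with which L1td1 associates, had 140, 116 and 109 FPKM in Rbbp4KO, against 113, 131 and 106 FPKM in Rbbp4F/F and was not called (0.06, 95% interval −0.23 to 0.35). Lin28b (0.07) was not called either.

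The linked genes Dppa4 and Dppa2 moved in opposite directions. They lie 9.7 kb apart on the plus strand of chromosome 16, Dppa4 at chr16:48283733-48294237 and Dppa2 at chr16:48303908-48319723. Dppa4 had 168, 142 and 145 FPKM in Rbbp4KO, against 188, 196 and 199 FPKM in Rbbp4F/F (log2 fold change −0.36, 95% interval −0.56 to −0.16, limma adjusted p = 0.00905). Dppa2 had 107, 116 and 115 FPKM in Rbbp4KO, against 83.2, 83.1 and 77.6 FPKM in Rbbp4F/F (0.46, interval 0.29 to 0.63, limma adjusted p = 0.00151). The groups did not overlap in either gene, as in 66.8% of all tested genes. The Dppa2 call was lost with upper-quartile scaling at a log2 fold change of 0.20 (limma adjusted p = 0.0530). Under median-ratio scaling it was 0.27. Dppa4 was lower under all 15 alternatives, between −0.63 and −0.20.

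The ratio of the neighbours within a library does not depend on scaling. Dppa2 stood at 0.637, 0.821 and 0.792 times the Dppa4 level in Rbbp4KO, against 0.443, 0.424 and 0.390 times in Rbbp4F/F. The ratios could not overlap, because every Rbbp4KO library lay above every Rbbp4F/F library for Dppa2 and below for Dppa4. For the test, 1 was added to each FPKM before the ratio was taken, which leaves a slight dependence on scaling. The log2 ratios so taken differed by 0.82 (exact permutation test over libraries, two-sided p = 0.10, the smallest that 3 against 3 libraries can give; adjusted p = 0.10 over 4 pairs). That p was fixed by the order of the libraries in the single genes, so the test adds nothing to the results of Dppa2 and Dppa4. In mouse cells Dppa2 and Dppa4 are known as activators of Dux and the genes of the 2-cell-like state. Of 19 genes of that state, 13 were listed at 0 in all 6 libraries, Duxf3 (Dux) and Zscan4c among them, and none exceeded 0.31 FPKM. Their summed level was 0.18 to 0.43 FPKM in Rbbp4KO and 0.11 to 0.35 FPKM in Rbbp4F/F. Many of these genes have close copies, so their values are uncertain.

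Fbxo15 and Zfp42 were the markers least changed in the values as deposited, while under median-ratio and upper-quartile scaling Dppa2 changed less than either. Fbxo15 had 50.1, 45.8 and 46.4 FPKM in Rbbp4KO, against 62.2, 54.2 and 53.5 FPKM in Rbbp4F/F. The groups just failed to overlap, and the call as lower was marginal (log2 fold change −0.25, 95% interval −0.46 to −0.04, limma adjusted p = 0.0435). It was lost in 9 of 15 alternatives, with adjusted p between 0.00329 and 0.364 over all of them. Those were equal sums (−0.09), totals without the 20 most abundant genes (−0.13), no filter, no mean trend, and leaving out Rbbp4KO replicate 2 (−0.22) or 3 (−0.23) or Rbbp4F/F replicate 1 (−0.18), 2 (−0.28) or 3 (−0.29). Of the proteins that form the ubiquitin ligase with F-box proteins, Skp1a fell to 60.0% of its Rbbp4F/F mean (−0.75, limma adjusted p = 0.00310), Cul1 rose 2.04-fold (1.00, limma adjusted p = 0.00435) and Rbx1 (0.12) was called only with equal sums (0.28, limma adjusted p = 0.0369).

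Zfp42, at chr8:43295063-43306980 on the minus strand, had 29.3, 34.4 and 32.2 FPKM in Rbbp4KO, against 35.5, 37.2 and 32.6 FPKM in Rbbp4F/F. The groups overlapped, and the gene was not called (log2 fold change −0.13, 95% interval −0.36 to 0.09, limma adjusted p = 0.261). The interval allows a fall of up to 0.36 on the log2 scale, so equal levels were not shown. Median-ratio scaling made it lower (−0.32, limma adjusted p = 0.0265), as did upper-quartile scaling (−0.39, limma adjusted p = 0.0114), and its sign turned with equal sums (0.02). Yy1, the gene from which Zfp42 was copied, averaged 22.4 ± 1.87 FPKM in Rbbp4KO and 15.5 ± 1.16 FPKM in Rbbp4F/F (0.50, limma adjusted p = 0.00559), a call lost with upper-quartile scaling (0.25). Yy2, another retrotransposed copy of Yy1, was not called (0.33), but was called higher without Rbbp4KO replicate 1 (0.51, limma adjusted p = 0.0115). Rlim, the ubiquitin ligase that degrades the Rex1 protein, had 40.2, 62.4 and 73.6 FPKM in Rbbp4KO, against 18.8, 19.3 and 24.7 FPKM in Rbbp4F/F (1.41, limma adjusted p = 0.00174).

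**Figure D2:**
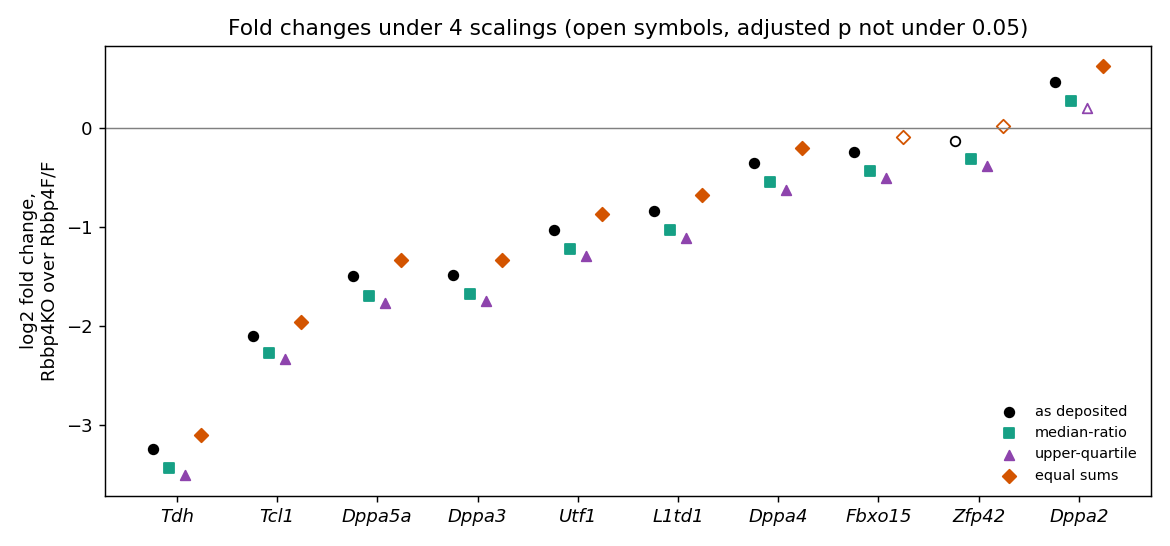
Log2 fold change of each marker (vertical axis, Rbbp4KO over Rbbp4F/F) with values as deposited and under 3 other scalings between libraries, where filled symbols have a limma adjusted p under 0.05. Tdh lies between −3.51 and −3.10 under all 4, while Fbxo15 at −0.25 and Zfp42 at −0.13 lie where the scaling decides the call.

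3 further pairs of related genes were compared within each library, as with Dppa2 and Dppa4. Dppa3 stood at 3.52, 2.31 and 3.18 times the level of Nanog, 77.2 kb away, in Rbbp4KO, against 0.467, 0.477 and 0.479 times in Rbbp4F/F. Dppa5a stood at 42.9, 42.6 and 42.2 times the Khdc3 level in Rbbp4KO, against 23.0, 22.9 and 23.9 times in Rbbp4F/F. This ratio was almost the same in the 3 libraries of a group, although both genes varied between Rbbp4KO libraries. Zfp42 stood at 1.45, 1.47 and 1.37 times the Yy1 level in Rbbp4KO, against 2.11, 2.54 and 2.16 times in Rbbp4F/F. No ratio overlapped between groups, and each pair had an exact permutation p of 0.10 (two-sided), the smallest possible, also after adjustment over the 4 pairs. Single genes did not overlap in 66.8% of those tested. The share for ratios of other gene pairs was not measured, so the separation cannot be called particular to these pairs.

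**Figure D3:**
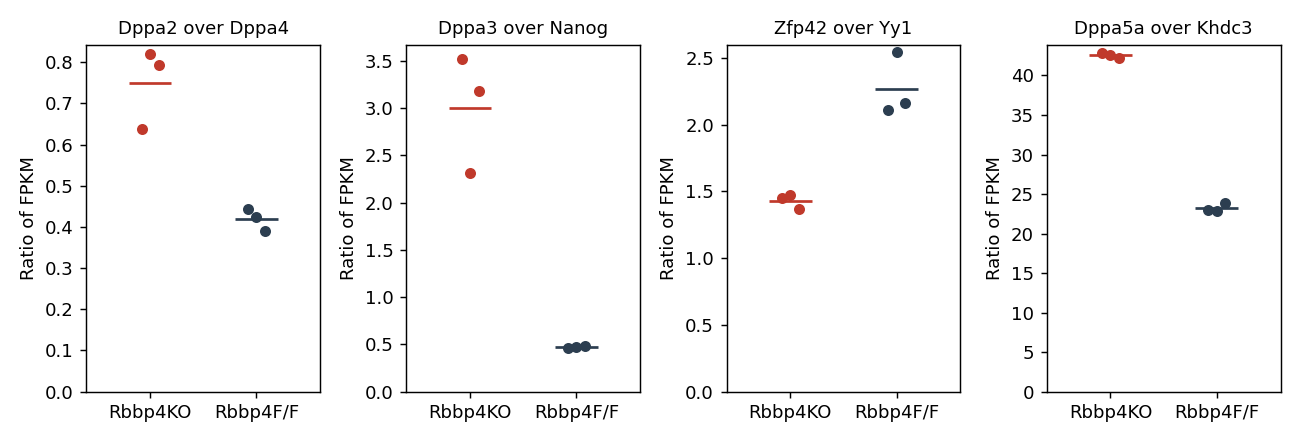
Ratio of the FPKM values of 2 related genes within each library (points, 1 per library; line, group mean), with Rbbp4KO left and Rbbp4F/F right. Dppa5a over Khdc3 lies between 42.2 and 42.9 in Rbbp4KO and between 22.9 and 23.9 in Rbbp4F/F.

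The order of the markers by level kept Dppa5a, Utf1 and Tcl1 in the same places in both groups, while all the others changed place. In Rbbp4KO it ran Dppa5a, Utf1, Dppa4, L1td1, Dppa2, Fbxo15, Zfp42, Tdh, Dppa3 and Tcl1, and the ranges of libraries overlapped between neighbours for Dppa4 and L1td1 only. In Rbbp4F/F it ran Dppa5a, Utf1, L1td1, Tdh, Dppa4, Dppa2, Fbxo15, Dppa3, Zfp42 and Tcl1, where L1td1 overlapped Tdh, Tdh overlapped Dppa4, and Dppa3 overlapped Zfp42. Tdh moved the most places, to position 8 in Rbbp4KO, against position 4 in Rbbp4F/F. The summed FPKM of the 10 genes was 1578 ± 265 in Rbbp4KO and 3628 ± 66.8 in Rbbp4F/F (SD, n = 3 each). Without Dppa5a, which dominates that sum, it was 793 ± 78.2 in Rbbp4KO and 1436 ± 73.5 in Rbbp4F/F.

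The Rbbp4KO libraries differed among themselves more than the Rbbp4F/F libraries did. The median SD of the markers on the log2 scale was 0.215 in Rbbp4KO and 0.091 in Rbbp4F/F, and over all tested genes it was 0.190 in Rbbp4KO and 0.113 in Rbbp4F/F. In 8 of the 9 called markers Rbbp4KO replicate 1, which held the most Rbbp4 transcript, lay nearest to the Rbbp4F/F mean, and this was so for 55.0% of all 8029 called genes. The exception was L1td1. Without that replicate all 9 kept their sign and their call, with log2 fold changes of −3.44 for Tdh, −2.29 for Tcl1, −1.69 for Dppa5a, −1.65 for Dppa3, −1.22 for Utf1, −0.79 for L1td1, −0.44 for Dppa4, −0.29 for Fbxo15 and 0.50 for Dppa2, and the part of the remaining Rbbp4 transcript in these differences was not tested.

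Genes next to the markers were read from the GENCODE annotation as the nearest protein-coding gene on each side. Leaving out Dppa2 and Dppa4 as neighbours of each other, 18 genes flanked the markers, of which 6 were lower, 3 were higher, 4 were not called and 5 were below the filter, where 22.5% of tested genes were lower and 36.7% higher. At some loci the marker and a neighbour were both lower. Of the lower neighbours, Nanog is also counted among the pluripotency regulators below, and Gdf3 and Ooep among the other stem cell markers. Beside Dppa3, both Gdf3 (−0.72, limma adjusted p = 0.0104) and Nanog (−3.92, limma adjusted p = 1.33e-05) were lower, and beside Dppa5a, so was Ooep. Kndc1, 2.3 kb from Utf1, averaged 2.11 ± 0.225 FPKM in Rbbp4KO and 6.14 ± 0.26 FPKM in Rbbp4F/F (−1.20, limma adjusted p = 0.000294). It kept 34.4% of its Rbbp4F/F mean. Cyb5a beside Fbxo15 (−0.58, limma adjusted p = 0.00571) and Tunar beside Tcl1 (−0.49, limma adjusted p = 0.0201) were lower as well. The Tunar call was lost without Rbbp4KO replicate 2 or 3 and without Rbbp4F/F replicate 1 or 2, with limma adjusted p between 0.0674 and 0.0879. No Rbbp4KO library reached 1 FPKM for Tunar, so it passed the filter through Rbbp4F/F alone.

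At other loci the marker and its neighbour parted. Triml2, 101.2 kb from Zfp42, had 51.2, 32.2 and 32.5 FPKM in Rbbp4KO, against 5.50, 7.31 and 6.14 FPKM in Rbbp4F/F (log2 fold change 2.41, limma adjusted p = 0.000129), while Zfp42 was not called. Patj, a cell polarity gene 7.1 kb from L1td1, averaged 26.1 ± 1.98 FPKM in Rbbp4KO and 9.67 ± 0.501 FPKM in Rbbp4F/F (1.34, limma adjusted p = 8.67e-05), while L1td1 fell. Mtmr9, 10.6 kb from Tdh, was higher (0.38, limma adjusted p = 0.0107), and that call did not hold under median-ratio (0.20) or upper-quartile scaling (0.13).

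**Figure D4:**
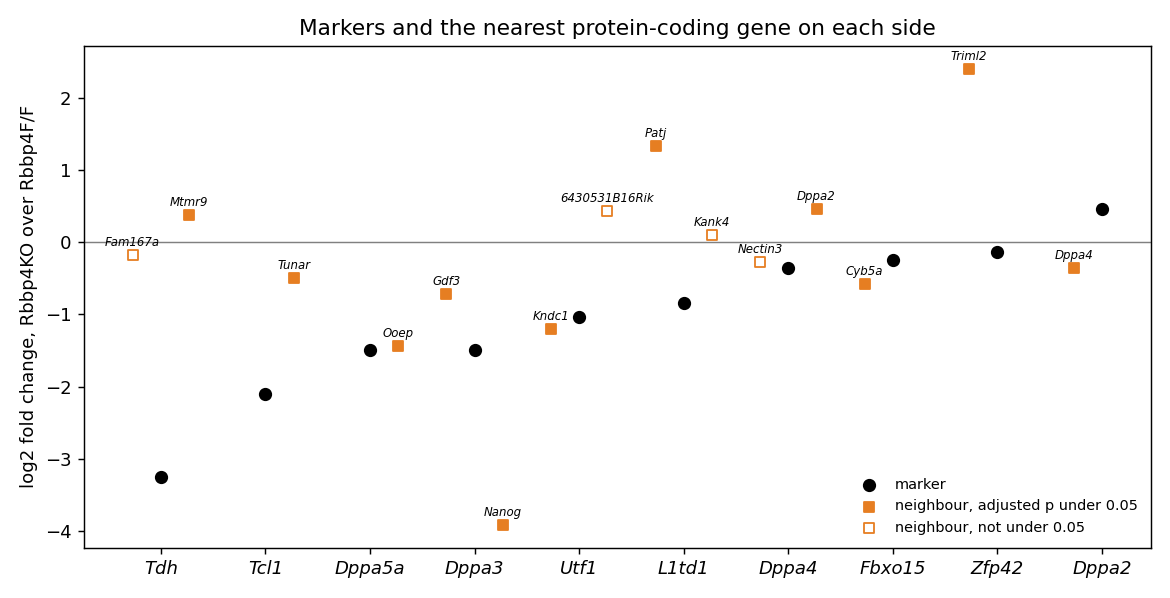
Log2 fold change (vertical axis, Rbbp4KO over Rbbp4F/F) of each marker (black) and of the nearest protein-coding gene on its lower-coordinate (left square) and higher-coordinate side (right square); genes below the filter are not drawn. Nanog lies below Dppa3, and Triml2 and Patj lie above Zfp42 and L1td1.

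Transcription factors of pluripotency, which bind near many of these markers, mostly fell too. Of 14 such genes, 9 were lower, 4 were higher and 1 was not called, with a median log2 fold change of −1.02, where 22.5% of tested genes were lower and 36.7% higher and their median was 0.17. Nanog (−3.92) and Prdm14 (−1.76) kept the smallest shares, 5.45% and 5.56% of their Rbbp4F/F means. Prdm14 was low, with 0.163 ± 0.127 FPKM in Rbbp4KO and 2.94 ± 0.191 FPKM in Rbbp4F/F, and passed the filter through Rbbp4F/F alone. Its log2 fold change was −3.64 when 0.1 rather than 1 was added to each FPKM. Pou5f1 (−1.59), Sox2 (−1.51), Klf2 (−1.62) and Nr5a2 (−1.55) fell by amounts near those of Dppa3 and Dppa5a. Esrrb (−1.12), Tfcp2l1 (−0.92) and Tcf7l1 (−0.84) fell less. The 4 higher genes were Tbx3 (0.76), Klf5 (0.72), Klf4 (0.44) and Sall4 (0.30). Tbx3 lay near the filter, with 1.25, 1.44 and 1.64 FPKM in Rbbp4KO, against 0.45, 0.53 and 0.35 FPKM in Rbbp4F/F. It passed the filter through Rbbp4KO alone. With 0.1 added in place of 1 it stood at 1.51. Stat3 (0.33) was not called, but was called higher with equal sums (0.49, limma adjusted p = 0.0203) and with totals without the 20 most abundant genes (0.45, limma adjusted p = 0.0274). Klf4 and Sall4 were not called under median-ratio or upper-quartile scaling. Klf4 also lost its call in 7 and Sall4 in 2 of the other alternatives, as given in the closing section.

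Other genes restricted to or enriched in stem cells were also measured. Of 20 listed, 18 were tested, and 12 of these were lower, 3 higher and 3 not called, with a median of −1.09. Of all tested genes 22.5% were lower and 36.7% higher, with a median of 0.17. The alkaline phosphatase gene Alpl (−2.93), Fgf4 (−2.81), the Nodal coreceptor gene Tdgf1 (−2.58) and the adhesion gene Jam2 (−2.06) fell most besides Khdc3. Nr0b1 (−1.82), the Polycomb gene Phc1 (−1.38), Zfp296 (−1.24) and the Ras gene Eras (−0.95) fell by less, as did Trim71 (−0.42). The higher genes were Fut4 (1.03), the glucose transporter gene Slc2a3 (0.66) and Rhox5 (0.34), which was not called under either of those scalings. Fut4 was low, with 2.17 ± 0.31 FPKM in Rbbp4KO and 0.547 ± 0.0569 FPKM in Rbbp4F/F, and passed the filter through Rbbp4KO alone. Rhox5 also lost its call without Rbbp4KO replicate 2 and without Rbbp4F/F replicate 1 or 3. Besides Lin28a, the genes Dnmt3l (0.06) and Tex19.1 (0.11) were not called, although Tex19.1 was called higher with equal sums (0.27, limma adjusted p = 0.0389).

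**Figure D5:**
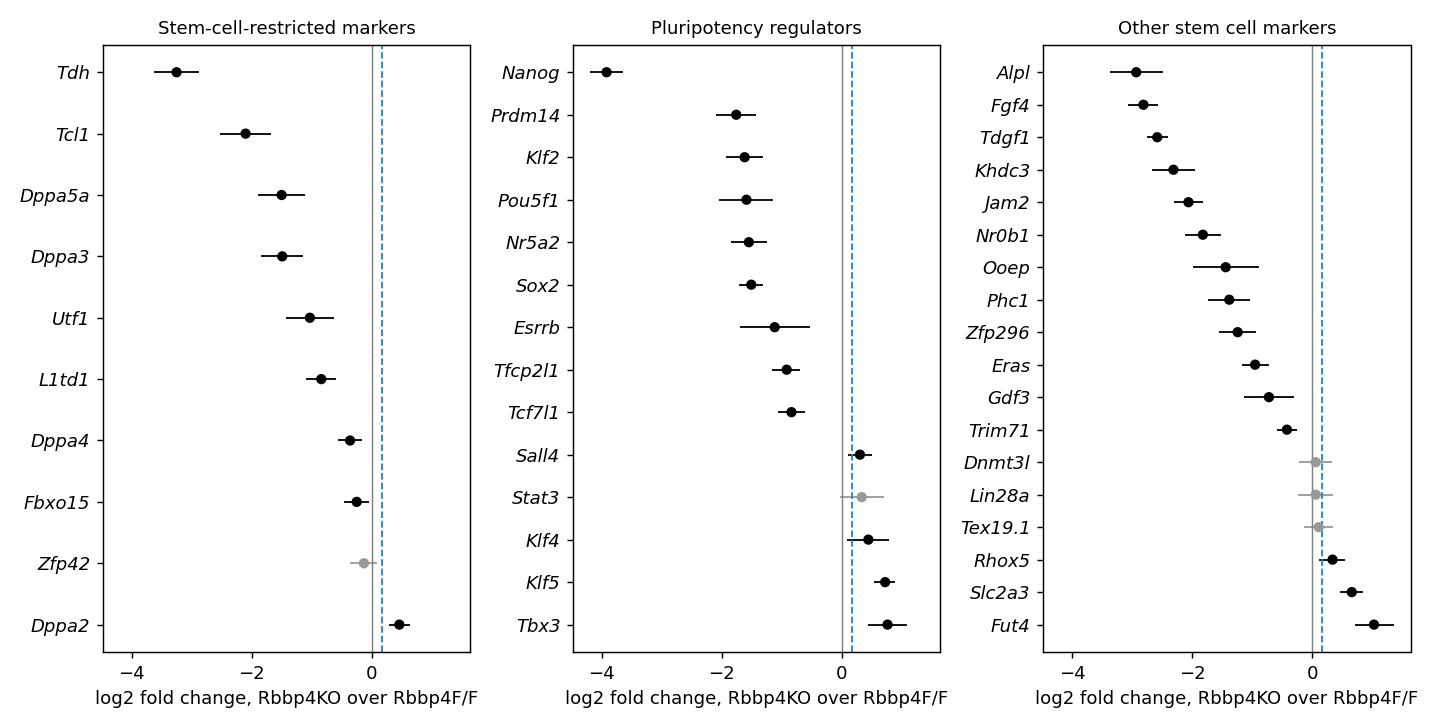
Log2 fold change with its 95% interval (limma) for the 10 markers, 14 pluripotency regulators and 18 tested other stem cell markers; grey marks genes that were not called and the dashed line the median of all tested genes, 0.17. All 3 lists spread from falls to rises.

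The genes nearest in pattern were found as the protein-coding genes with the smallest mean absolute difference, over the 6 libraries, of log2(FPKM + 1) centred on the Rbbp4F/F mean. This was done for the 2 lowest and 2 highest log2 fold changes among the markers. For Tdh they were Enpp3 (0.124) and the alanine transaminase gene Gpt2 (0.133), and for Tcl1 they were Nme4 (0.044) and the stearoyl-CoA desaturase gene Scd1 (0.074). For Zfp42 they were Ckap4 (0.006) and Pop1 (0.014), and for Dppa2 they were Pgap3 (0.009) and Hnrnpll (0.013).

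Markers of other cells that the cultures could hold were measured in the same libraries. Over all tested genes 36.7% were higher and 22.5% lower. A gene can pass the filter through 1 group alone, which fixes the direction of its call beforehand. Cdx2, Gata3, Plac1, Gata4, Nkx2-5, Sycp1 and Taf7l passed so, with every Rbbp4F/F library under 1 FPKM. Prdm1 and Stra8 passed with every Rbbp4KO library under 1 FPKM. The counts below include these genes. Of 13 trophoblast markers, 10 of 11 tested were higher and none lower, with summed levels of 2220 to 4010 FPKM in Rbbp4KO and 107 to 167 FPKM in Rbbp4F/F, mostly from Krt8 and Krt18, and Tpbpa and Prl3d1 of the placenta were at 0 throughout. Of 10 primitive endoderm markers, 3 of 5 tested were higher and 1 lower, with sums of 50.4 to 142 FPKM in Rbbp4KO and 44.0 to 46.5 FPKM in Rbbp4F/F. Most of that sum in Rbbp4KO was Col4a1, with 35.0, 129 and 103 FPKM in Rbbp4KO, against 20.1, 19.06 and 17.2 FPKM in Rbbp4F/F, while Lama1 was lower, with 3.65 ± 1.42 FPKM in Rbbp4KO and 23.1 ± 0.994 FPKM in Rbbp4F/F. The endoderm genes below the filter, Gata6, Sox7, Foxa2, Afp and Pdgfra, all had higher means in Rbbp4KO. The highest of them was Foxa2, with 1.12 ± 0.199 FPKM in Rbbp4KO and 0.237 ± 0.0493 FPKM in Rbbp4F/F. Of 6 mesoderm markers 2 were tested, 1 higher and 1 lower, with sums of 7.66 to 8.69 FPKM in Rbbp4KO and 4.93 to 5.96 FPKM in Rbbp4F/F. The higher gene was Nkx2-5, with 5.47 ± 0.336 FPKM in Rbbp4KO and 0.693 ± 0.0643 FPKM in Rbbp4F/F. Kdr was lower, with 1.58 ± 0.203 FPKM in Rbbp4KO and 3.39 ± 0.897 FPKM in Rbbp4F/F. Below the filter, Mixl1 and Mesp1 had higher means in Rbbp4KO, and T and Tbx6 lower means. Of 6 neuroectoderm markers 3 were tested, 1 higher, 1 lower and 1 not called. Their sums were 43.4 to 50.1 FPKM in Rbbp4KO and 130 to 175 FPKM in Rbbp4F/F. Most of the neuroectoderm sum was Tubb3, with 26.2 ± 3.02 FPKM in Rbbp4KO and 149 ± 24.2 FPKM in Rbbp4F/F, while Nes was higher, with 17.8 ± 0.707 FPKM in Rbbp4KO and 6.44 ± 0.296 FPKM in Rbbp4F/F. Sox1, Zic1 and Neurog2, below the filter, all had higher means in Rbbp4KO. Zic1 had 2.99, 2.73 and 0.74 FPKM in Rbbp4KO, against 0.01, 0.03 and 0.09 FPKM in Rbbp4F/F. Germ cells share several of the markers described here. Of 12 germline genes 9 were tested, 7 higher and 2 lower, with sums of 93.5 to 114 FPKM in Rbbp4KO and 42.1 to 43.9 FPKM in Rbbp4F/F. The higher genes were Taf7l (3.47), Ddx4 (1.96), Sycp1 (1.35), Mael (1.05), Tex101 (0.80), Tfap2c (0.62) and Sycp3 (0.59). The lower genes were Prdm1 (−1.06) and Stra8 (−1.02), which kept 30.1% and 20.9% of their Rbbp4F/F means. Fibroblast genes, which feeder cells would bring, summed to 9.76 to 11.1 FPKM in Rbbp4KO and 12.9 to 19.3 FPKM in Rbbp4F/F. Most of it was Thy1, the only 1 of 10 such genes that was tested, which was lower (−0.84, limma adjusted p = 0.00371). Col1a1, at no more than 0.54 FPKM, also had a lower mean in Rbbp4KO. All the other fibroblast genes had higher means in Rbbp4KO but stayed below the filter. The highest of them was Dcn, with 0.727 ± 0.22 FPKM in Rbbp4KO and 0.213 ± 0.137 FPKM in Rbbp4F/F. The part of any of these cell types in the marker changes was not tested.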

How the data were processed

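Total RNA of 6 mouse embryonic stem cell libraries was sequenced (TruSeq libraries, per the labels' protocols). RSEM, HISAT2 2.1.0, GRCm38.p6, FastQC and DESeq 1.26.0 appear without roles in the submitters' processing notes, and no source used here gives the annotation, mapping options or use of strand. The authors deposited 1 FPKM value per gene, and how it was computed is not stated. The files have no header, and the unit was taken from the values: library sums differ (697933 to 737123 in Rbbp4KO, 790121 to 800146 in Rbbp4F/F), and low values fall on even steps once 260 to 270 bases are taken from the transcript length (81.8% to 85.4% within 0.15 of a whole step). FPKM is relative to the total, so a change in abundant transcripts shifts all others. Tests used FPKM, not fragment numbers. By the estimated depth, the markers with the fewest fragments, Dppa3 and Tcl1, had about 190 in their lowest libraries.

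Of 52872 rows per file, 2 hold overflowing text and were left out. Symbols and coordinates came from GENCODE M21 (GRCm38), which matched 51719 identifiers. Groups came from the titles. The groups were compared on log2(FPKM + 1) by limma (version 3.58.1, R 4.3.3), two-sided, with group alone in the model and a mean trend in its empirical Bayes step. Benjamini-Hochberg adjustment ran over the 13579 genes that had 1 FPKM or more in 3 or more libraries, with a threshold of 0.05; fold changes of low genes are understated by the pseudocount of 1. The procedure was also run on simulated data with few changed genes and independent noise. In these data 59.1% of tested genes were called, so that run does not vouch for the calls here. Ratios of related genes were compared by exact permutation tests on log2 ratios of FPKM + 1 (scipy 1.17.1). As no source says that libraries of a group are separate cultures, p-values measure the spread between libraries, which may be technical.

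The markers, lists and pairs were chosen with earlier results of these data known. Named genes were all markers, the regulators, stem cell markers, partners and paralogs of fixed lists, and flanking genes. Alternatives were a pseudocount of 0.1, no filter, a filter of 5 FPKM, 4 scalings, no mean trend, the replicate number as a block and leaving out each library (with at least 1 FPKM in 2 libraries). Zfp42-ps1 was not analysed here, and a few listed genes are not reported here and were left out of the list counts.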

Additional observations from a re-analysis of the deposited data

How the results depend on the processing

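Of 150 values of the 10 markers under the alternatives, 137 kept their sign and their side of the threshold, 10 lost a call (9 of Fbxo15 and 1 of Dppa2), 2 gained one (Zfp42) and 1 changed sign. Calls of the other 7 markers did not change. Between 7 and 9 markers were lower, and 1 was higher except with upper-quartile scaling (0). Of the regulators, 4 were higher, but 2 with a 5 FPKM filter (which removes Klf4 and Tbx3), median-ratio or upper-quartile scaling, 3 without a filter, 5 with equal sums or totals without the 20 most abundant genes, when Stat3 is called too, and 2 to 4 leaving out 1 library, with 2 without Rbbp4F/F replicate 1 or 3. Klf4 also lost its call without a filter, under the block, and without any library but Rbbp4KO replicate 1, and Sall4 without Rbbp4F/F replicate 1 or 3.

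Small changes reversed with scaling. With median-ratio and upper-quartile scaling, log2 fold changes were −0.13 and −0.21 for Lin28a, −0.14 and −0.21 for Dnmt3l, −0.08 and −0.15 for Tex19.1, −0.09 and −0.15 for Lin28b, and −0.07 and −0.14 for Rbx1. With equal sums they were 0.02 for Zfp42 and 0.04 for Akt2, which stood at 0.00 with totals without the 20 most abundant genes. Leaving out 1 library gave −0.05 to 0.14 for Lin28a and −0.07 to 0.16 for Dnmt3l: −0.05 for Lin28a and −0.07 for Dnmt3l without Rbbp4KO replicate 1, and −0.01 for Lin28a without Rbbp4F/F replicate 3. The causes were not tested. With the replicate block 8 markers were lower and 1 higher, as without it, and 4872 genes were higher and 2907 lower; the block also called Stat3 higher (limma adjusted p = 0.0438) and lost Klf4 (0.0723) and Mtcp1 (0.0562). Deviations of libraries with the same number correlated at −0.001, −0.009 and 0.049, so the numbers were not taken to pair them. With 3 libraries a group, small changes such as those of Fbxo15 and Zfp42 are not resolved.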
